A study of Macaca mulatta with 33 samples.

Results

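Markers of pericytes and vascular smooth muscle were followed through the rhesus monkey corpus luteum, the gland that forms from the ovulated follicle and secretes progesterone. The markers were the probe sets annotated with a single gene symbol out of 9: ACTA2, MYH11, TAGLN, RGS5, PDGFRB, NOTCH3, CSPG4, DES and CNN1. Probe sets with such a symbol were found for 5 of these genes, out of 14132 genes named in this way on the array: 4 for MYH11, 3 for CSPG4, 2 each for TAGLN and NOTCH3 and 1 for CNN1, 12 in all of 52766. The other 4 genes (ACTA2, RGS5, PDGFRB and DES) were not analysed here.

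Pericytes and smooth muscle cells, together called mural cells, wrap the endothelium of small and large vessels. Smooth muscle cells contract through actin and the smooth muscle myosin heavy chain, and the genes of this machinery are switched on together by serum response factor with its partner myocardin. Pericytes are recruited to new capillaries by platelet-derived growth factor released from the endothelium, and contact between the cells signals through Notch receptors. The corpus luteum is among the most densely vascularised tissues of the adult, and its capillaries carry pericytes.

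Whole dissected corpora lutea of adult female rhesus macaques were hybridised to 33 Affymetrix Rhesus Genome arrays, in 7 groups. To imitate early pregnancy, all treated females were given human chorionic gonadotropin (hCG), the pregnancy hormone that keeps the corpus luteum alive, in rising doses. Trilostane (TRL), which inhibits the enzyme 3-beta-hydroxysteroid dehydrogenase and so progesterone synthesis, was given alongside hCG in some groups, and R5020, a synthetic progestin, was added to replace progesterone. Of the arrays with hCG, TRL and R5020, 4 were of luteal day 10 (1 day of treatment) and 4 of luteal day 15 (6 days). Those with hCG and TRL were 4 and 4 on these days, and those with hCG alone 4 and 5. The 8 untreated arrays, all of luteal day 10, were the baseline for both days, so the 6-day groups differ from it in luteal age as well as in treatment. The labels do not say whether each corpus luteum came from a separate animal, and p-values therefore measure the spread between these samples.

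The array names place the arrays in 3 sets. In set 1 were all day 10 arrays with hCG or with hCG and TRL, 4 of day 15 with hCG, and 4 untreated ones. All 4 of day 10 with R5020 were in set 2, together with 3 of day 15 with R5020, 3 of day 15 with hCG and TRL, and 4 untreated ones. A single array of each day 15 group made up set 3. Arrays of untreated and hCG groups in set 1, and 1 hCG array in set 3, are marked as reanalysed in their titles, except 1 hCG array of day 15. None with TRL or R5020 is, so in set 1 at day 10 this mark cannot be told apart from TRL. Of the 528 pairs of arrays, 2 were near-identical, with an SD of the log2 differences of 0.192 and 0.201 against a median of 0.476 over all pairs and 0.318 for the next lowest. One pair is day 15 hCG replicates 3 and 5, which carry 1 sample number and were averaged in every mean (n = 4). The other is replicate 4 of day 15 hCG with TRL and R5020 and replicate 4 of day 15 hCG with TRL, which belong to different groups. Calls of the mural markers that rest on these arrays are given with and without them. Where near-identical arrays are said to be left out, they are those of this second pair, not hCG replicates 3 and 5.

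Luteal markers were present throughout. The mean log2 intensity over all arrays was 14.66 for STAR, which carries cholesterol into mitochondria, 13.30 for the inhibin subunit INHA and 12.85 for HSD3B2, an enzyme of the type that TRL inhibits. The mural markers were also present. Of the 12 probe sets, 10 lay above 6.19, the median of all values, on all 33 arrays, and these 10 were tested. MYH11 probe set MmugDNA.33340.1.S1_at (4.84 to 5.88) and CSPG4 probe set MmugDNA.20461.1.S1_at (3.90 to 4.37) lay below it on every array and were not tested. Each gene is described by its tested probe set with the highest mean, called its lead. Since whole tissue was used, fewer cells of a type and less RNA per cell cannot be told apart.

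Levels are the deposited log2 intensities after each array was centred on its median and the estimated effect of its array set was removed, on the scale of set 1. Changes are log2 differences ± SE from limma, and a probe set passed where its p, adjusted over all 28911 tested probe sets by the Benjamini-Hochberg method, was under 0.05. Across the 7 groups, 2 of the 10 mural probe sets differed by limma's moderated F test, the leads of CSPG4 (adjusted p = 0.010) and TAGLN (adjusted p = 0.032), where 15.2% of all probe sets did. CSPG4, a pericyte proteoglycan, was lower than untreated in every treated group's mean. TAGLN, an actin-binding protein of contractile smooth muscle, was at its lowest mean after 6 days of hCG and TRL. The leads of MYH11, CNN1 and NOTCH3 passed in no comparison between groups. The plot of levels by days of hCG shows the 5 leads side by side.

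**Figure D1:**
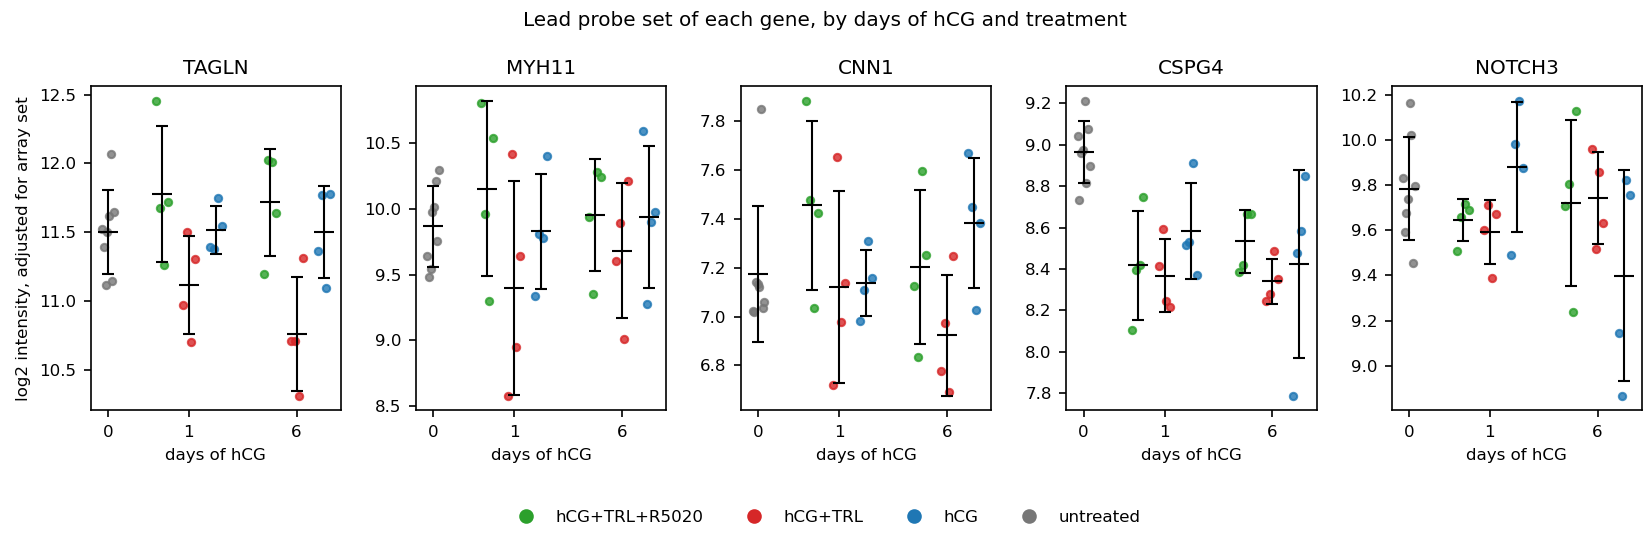
Levels of the lead probe set of TAGLN, MYH11, CNN1, CSPG4 and NOTCH3 (log2 intensity adjusted for array set, with a separate axis for each gene) by days of hCG, with untreated tissue at 0 days; each point is a sample, and bars are mean ± SD (n = 8 untreated, 4 in each other group). CSPG4 lay below the lowest untreated sample in 21 of 24 treated samples (18 of 24 for its second tested probe set, not drawn). The 24 include both near-identical arrays of different groups and are all set against the same 8 untreated samples. The share of all probe sets with such counts was not computed. TAGLN was lowest after 6 days of hCG and TRL, at a mean of 10.76 against 11.50 untreated.

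The contractile members come first. TAGLN encodes transgelin, which binds and bundles actin filaments and is an early marker of smooth muscle. After 6 days of hCG and TRL, its lead (MmugDNA.30842.1.S1_s_at) stood at 10.71, 10.71, 10.31 and 11.31 in replicates 1 to 4. The 8 untreated samples had a lowest level of 11.12, a median of 11.51 and a highest of 12.07. Of the TRL-treated samples, 3 of 4 lay below every untreated sample, and the remaining one was replicate 4, which is near-identical to an array of the R5020 group. TAGLN fell by 0.74 on the log2 scale (SE 0.23, adjusted p = 0.037, a 1.67-fold lower intensity).

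Without both near-identical arrays the TAGLN change was -1.04 (adjusted p = 0.011), and within array set 2 it was -1.04 (adjusted p = 0.032). Both settings take the change from the same arrays of set 2, so they are not separate checks. The second TAGLN probe set, whose levels followed the lead with r = 0.98 across 32 samples, averaged 9.45 ± 0.47 (SD, n = 4) after 6 days of hCG and TRL and 10.00 ± 0.36 (SD, n = 8) untreated, a change of -0.55 that did not pass (limma adjusted p = 0.18). The mean of both probe sets changed by -0.65 (adjusted p = 0.073). The call on the lead ended when any 1 of 6 samples was left out, TRL replicates 1, 2 or 3 or untreated replicates 6, 7 or 9 (adjusted p 0.069 to 0.148), and when low probe sets were not filtered (adjusted p = 0.053). It also ended with the replicate number as a block, where the change was only -0.12 (adjusted p = 0.97).

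Other cell markers moved in the same comparison. Of 8 macrophage markers all 8 lay above 0, where 49.4% of all probe sets did. Their median change was 0.61, and 5 had an unadjusted limma p under 0.05, against 22.4% of all probe sets. LYZ, the secreted lysozyme, passed (1.56 ± 0.33, limma adjusted p = 0.0031), where 9.36% of all probe sets passed in either direction. Macrophage list scores were -0.21 to 1.08 after 6 days of hCG and TRL and -0.84 to 0.63 untreated. A list score is the mean over the list of each gene's level minus that gene's mean over the samples. Of 8 fibroblast markers DCN, a matrix proteoglycan, rose by 1.08 ± 0.27 (adjusted p = 0.011) and COL1A1, a chain of type I collagen, fell by 0.94 (SE 0.30, adjusted p = 0.048), with scores of -0.44 to 0.31 and -0.38 to 0.43. None of 12 endothelial markers passed by limma, at an adjusted or an unadjusted p (9.36% and 22.4% of all probe sets). Endothelial scores were -0.02 to 0.05 with hCG and TRL and -0.14 to 0.29 untreated. Among 5 luteal markers HSD3B2 fell by 2.50 and FDXR, a mitochondrial electron donor of steroid synthesis, by 0.60. Among 4 surface epithelium markers KRT8, a keratin, fell by 1.20. The part of these in the TAGLN and CSPG4 results was not tested.

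Adding R5020 for 6 days set TAGLN against the low level under TRL. Tissue with R5020 had levels of 11.19, 12.03, 12.01 and 11.64, and tissue with hCG and TRL alone had those given above. Only the lowest R5020 sample lay below the highest TRL sample, which was replicate 4 of the near-identical pair. The difference was 0.96 ± 0.24, with a 95% interval of 0.45 to 1.46, an unadjusted limma p of 0.00055 and an adjusted p of 0.75 over all probe sets, so it did not pass. Without the near-identical arrays it was 1.17 (adjusted p = 0.17), and within array set 2, from the same arrays, it was 1.16 (adjusted p = 0.47). In this comparison 966 of 28911 probe sets had an unadjusted p under 0.05 and none passed. With R5020, TAGLN was close to untreated tissue in its mean, at 11.72 ± 0.39 (SD, n = 4) against 11.50 ± 0.30 (SD, n = 8), a difference of 0.22 with a 95% interval of -0.25 to 0.68.

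The R5020 and TRL groups were also compared after 1 day. TAGLN levels were 12.45, 11.67, 11.26 and 11.72 with hCG, TRL and R5020, and 10.97, 11.50, 10.70 and 11.31 with hCG and TRL. The 2 groups overlapped, and the difference of 0.66 ± 0.32 did not pass (limma adjusted p rounds to 1.0). These groups share no array set, so the difference rests on the estimated set effect. Over 20 other settings it lay between 0.42 and 1.21. With hCG alone the levels were 11.39, 11.38, 11.75 and 11.55 after 1 day, all within the untreated range. After 6 days of hCG alone they were 11.36, 11.77, 11.04, 11.78 and 11.15 on 5 arrays, and the change against untreated was -0.01 ± 0.23. TRL changed TAGLN by -0.73 ± 0.29 against 6 days of hCG alone (limma adjusted p = 0.84). Those 2 groups share only set 3, and a fit of their arrays alone gave -0.02, while leaving out the near-identical arrays gave -1.17.

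MYH11 encodes the smooth muscle myosin heavy chain, the motor of contraction and the most specific marker of mature smooth muscle among these genes. Its lead (MmugDNA.33337.1.S1_s_at) passed in none of the 15 comparisons, and its group means lay between 9.40 and 10.15. The widest spread was after 1 day of hCG and TRL, with levels of 8.58, 10.42, 8.95 and 9.65 (SD 0.81, n = 4), against an SD of 0.31 in the 8 untreated samples. These 4 samples included both the lowest MYH11 level in the series and a level above every untreated sample. The untreated samples had a lowest level of 9.48, a median of 9.87 and a highest of 10.30. The change was -0.47 ± 0.35 (limma adjusted p = 0.60), with a 95% interval of -1.18 to 0.24. After 6 days of hCG and TRL, where TAGLN fell, the MYH11 change was -0.19, with a 95% interval of -0.87 to 0.50. The 2 other tested MYH11 probe sets followed the lead with r = 0.94 and 0.98 and passed in no comparison either.

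CNN1 encodes calponin, an actin-binding inhibitor of the myosin ATPase in smooth muscle. Its only probe set (MmuSTS.3566.1.S1_at) had its lowest mean, 6.92 ± 0.25 (SD, n = 4), after 6 days of hCG and TRL, and its highest, 7.46 ± 0.35 (SD, n = 4), after 1 day of hCG, TRL and R5020. Its 4 levels with hCG and TRL on day 15 were 6.78, 6.97, 6.69 and 7.25. The untreated mean was 7.17 ± 0.28 (SD, n = 8), with a lowest level of 7.02, a median of 7.09 and a highest of 7.85, the last in replicate 7 alone. The 2 groups overlapped, and the change of -0.25 ± 0.19 did not pass (limma adjusted p = 0.48, 95% interval -0.64 to 0.14). Against 6 days of hCG alone, a group that shares only array set 3 with it, the change was -0.45 ± 0.24 (limma adjusted p = 0.94).

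The members of the pericyte surface are CSPG4 and NOTCH3. CSPG4 encodes the proteoglycan NG2, which sits on the surface of pericytes and of growing smooth muscle and binds matrix collagens and platelet-derived growth factor. For its lead (MmugDNA.34877.1.S1_at), 21 of 24 treated samples lay below the lowest of the 8 untreated samples, and none above the highest. The untreated samples had a lowest level of 8.73, a median of 8.97 and a highest of 9.21. For the second tested CSPG4 probe set, 18 of 24 treated samples lay below the lowest untreated one. The 24 include both near-identical arrays of different groups, and all are set against the same 8 untreated samples. The share of all probe sets with such counts was not computed. The plot of deposited values by array set shows the same arrays before any adjustment.

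After 1 day of hCG and TRL, CSPG4 levels were 8.41, 8.60, 8.25 and 8.21, all below the untreated samples. The groups did not overlap, which held for 2.01% of all probe sets in this direction. CSPG4 fell by 0.60 (SE 0.16, adjusted p = 0.034, a 1.51-fold lower intensity), and it was the only 1 of the 10 mural probe sets to pass in this comparison, where 2.98% of all probe sets passed and 1.25% passed lower. The call ended without hCG and TRL replicates 1, 3 or 4 or untreated replicates 1, 3 or 4 (adjusted p 0.061 to 0.108), without the near-identical day 15 arrays (adjusted p = 0.082) and within array set 1 (-0.56, adjusted p = 0.062). The second CSPG4 probe set changed by -0.35 (adjusted p = 0.23), and the mean of both by -0.47 (adjusted p = 0.049). In the same comparison 10 of 12 endothelial markers lay below 0, with a median change of -0.28, where 52.2% of all probe sets lay above 0. By limma 0 of the 12 passed and 4 had an unadjusted p under 0.05, against 14.2% of all probe sets. Scores of the endothelial markers were -0.33 to 0.01 with hCG and TRL and -0.14 to 0.29 untreated. Of the luteal markers STAR rose by 0.20 ± 0.05 (adjusted p = 0.025). The part of these in the result was not tested.

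Under hCG and TRL for 6 days the levels were 8.24, 8.28, 8.49 and 8.35. Again no sample reached the untreated range, and groups without overlap in this direction made up 5.28% of all probe sets. CSPG4 fell by 0.62 (SE 0.15, adjusted p = 0.0089, a 1.54-fold lower intensity). Its second tested probe set (MmugDNA.31603.1.S1_at) fell by 0.47 (SE 0.14, adjusted p = 0.030), at 7.09 ± 0.14 (SD, n = 4) against 7.56 ± 0.17 (SD, n = 8) untreated. With TAGLN, 3 of the 10 mural probe sets passed, all lower, against 9.36% of all probe sets passing in either direction and 5.11% lower. The lead kept its call with each of the 12 samples of the 2 groups left out in turn (adjusted p 0.0076 to 0.034), without the near-identical arrays (-0.66, adjusted p = 0.026) and within array set 2 (-0.66, adjusted p = 0.036), where no array bears the mark of reanalysis. The last 2 settings take the change from the same arrays of set 2, so they are not separate checks. The second probe set lost its call without TRL replicates 1 or 2 or untreated replicates 6, 8 or 9 (adjusted p 0.053 to 0.099), and within array set 2 (adjusted p = 0.071). With the replicate number as a block neither CSPG4 probe set passed (adjusted p = 0.59 for the lead).

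**Figure D2:**
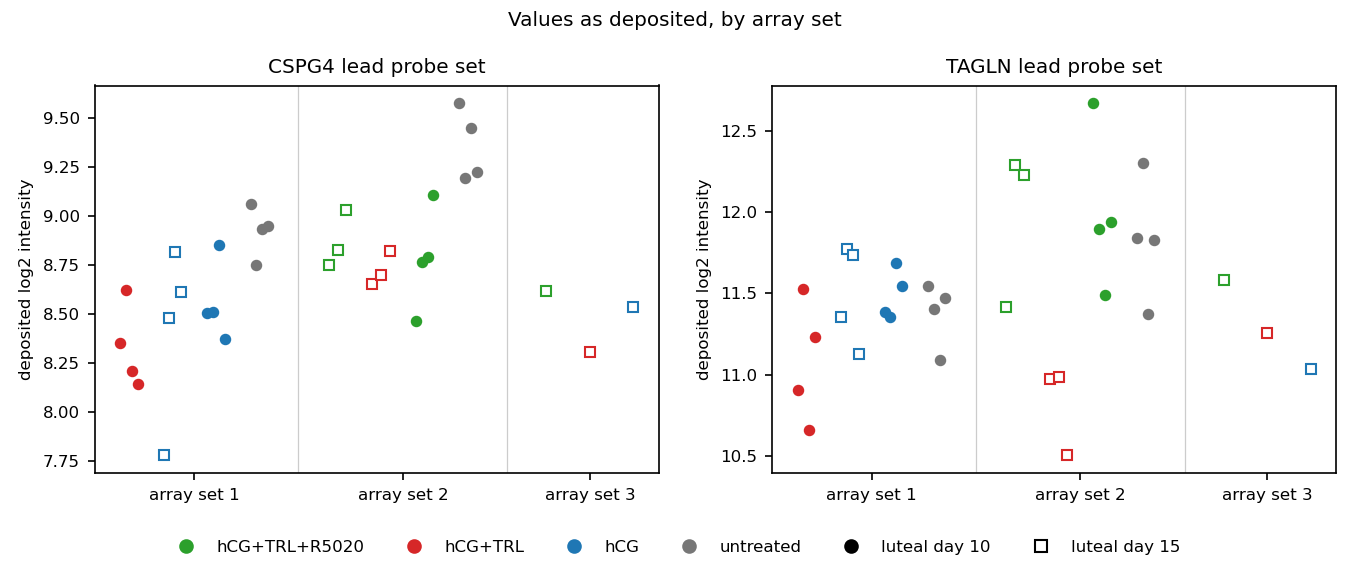
Deposited log2 intensity of the lead probe sets of CSPG4 and TAGLN on each of the 33 arrays, split by array set; filled circles are luteal day 10 and open squares luteal day 15, and colours give the treatment. For CSPG4 in set 2 the treated arrays lie between 8.46 and 9.11 and the untreated arrays between 9.19 and 9.57. For TAGLN in set 2 the hCG and TRL arrays lie between 10.50 and 10.99, below the untreated arrays at 11.38 to 12.30. The share of all probe sets split in these ways was not computed.

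In array set 2, as deposited and before any adjustment, CSPG4 read 8.75 to 9.03 on the 3 arrays of 6 days with R5020, 8.65 to 8.82 on the 3 of 6 days with hCG and TRL and 8.46 to 9.11 on the 4 of 1 day with R5020, against 9.19 to 9.57 on the 4 untreated arrays. In set 1 it read 8.14 to 8.62 after 1 day of hCG and TRL and 8.37 to 8.85 after 1 day of hCG, against 8.75 to 9.06 untreated. No treated array of set 2 overlapped with the untreated arrays of that set, while in set 1 the hCG arrays of day 10 and of day 15 (7.78 to 8.81) overlapped with the untreated ones. The share of all probe sets split in this way within set 2 was not computed. In the adjusted levels, against all untreated samples, 3 of the 4 samples of 1 day with R5020 lay below the lowest. In the fit, set 2 read 0.35 ± 0.14 higher than set 1 for this probe set (limma adjusted p = 0.14).

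With hCG alone CSPG4 was lower after 6 days. The 5 arrays had levels of 7.79, 8.48, 8.53, 8.85 and 8.63 in replicates 1 to 5, of which 3 and 5 are the near-identical pair. Replicate 1 was far below the others and replicate 4 lay within the untreated range. CSPG4 fell by 0.54 (SE 0.16, adjusted p = 0.040), and no other mural probe set passed in this comparison, where 5.1% of all probe sets did and 2.18% passed lower. Leaving out replicate 1 gave -0.33 (adjusted p = 0.18). The call also ended without hCG replicates 2 or 3 or untreated replicates 1, 3 or 4 (adjusted p 0.071 to 0.093). Within array set 1 it ended as well (-0.50, adjusted p = 0.27). The same held without the near-identical arrays of the day 15 TRL and R5020 groups, none of which is of hCG alone (-0.49, adjusted p = 0.095). The second CSPG4 probe set changed by -0.32 (adjusted p = 0.22), and the mean of both by -0.43, which did not pass (adjusted p = 0.051). Here 11 of 12 endothelial markers lay below 0, where 46.7% of all probe sets lay above 0. The median of the 12 was -0.15, with scores of -0.38 to 0.22 with hCG and -0.14 to 0.29 untreated. By limma 0 of the 12 passed and 2 had an unadjusted p under 0.05, against 18.1% of all probe sets. KRT8 fell by 1.21, HSD3B2 fell by 1.00 and STAR rose by 0.27, and the part of all these in the result was not tested.

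In the other 3 comparisons with untreated tissue no mural probe set passed by limma. After 1 day of hCG 4.62% of all probe sets passed, and at an unadjusted p under 0.05 the count was 1 of 10, against 18.6% of all probe sets. CSPG4 levels were 8.51, 8.53, 8.91 and 8.37 (change -0.38 ± 0.16, adjusted p = 0.18). After 1 day of hCG, TRL and R5020 1.44% of all probe sets passed, the unadjusted count was 3 of 10, against 12.1% of all probe sets, and CSPG4 levels were 8.10, 8.40, 8.42 and 8.75 (change -0.55 ± 0.16, adjusted p = 0.082). The second CSPG4 probe set did not overlap with untreated tissue there, as was true of 1.83% of all probe sets in this direction (change -0.41, adjusted p = 0.17). With R5020 for 6 days 5.13% passed, the unadjusted count was 2 of 10, against 18.4% of all probe sets, and CSPG4 levels of 8.38, 8.42, 8.67 and 8.67 did not overlap with untreated tissue, as was true of 3.15% of all probe sets in this direction (change -0.43 ± 0.15, adjusted p = 0.10). All 6 comparisons share the same 8 untreated arrays, and their values are not independent.

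**Figure D3:**
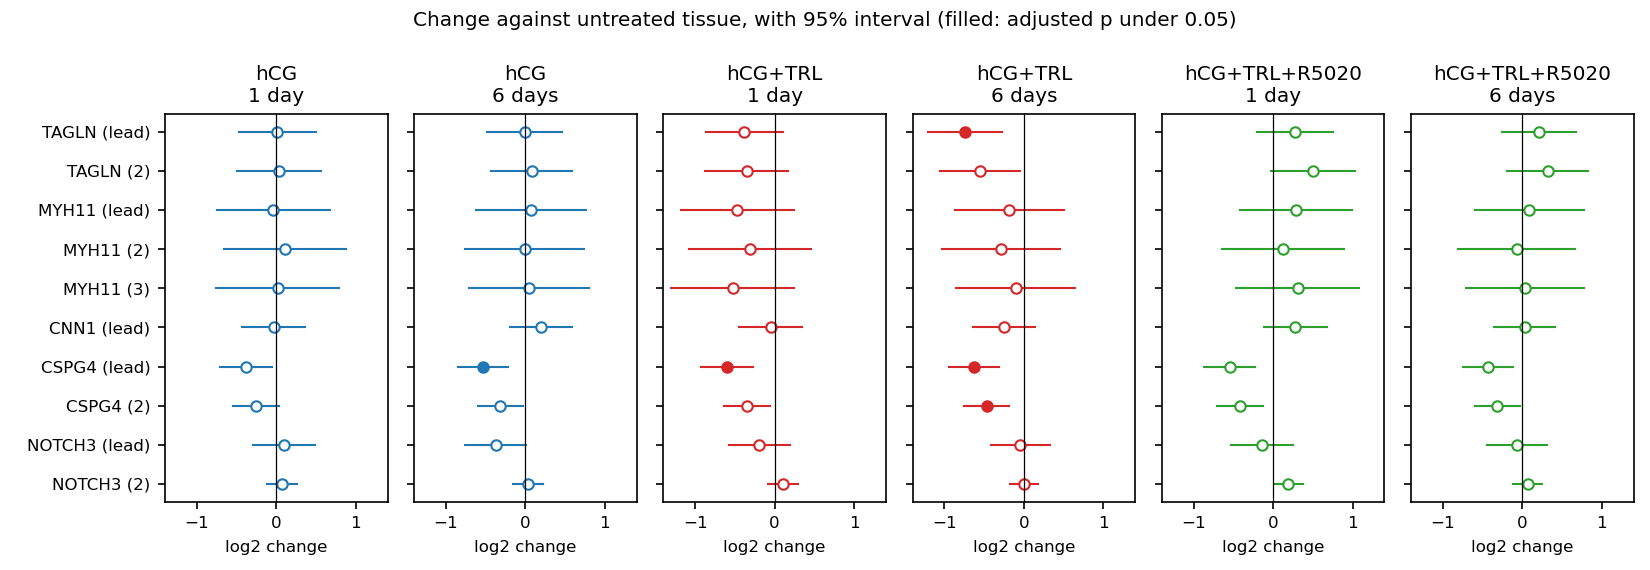
Log2 change against untreated tissue (horizontal axis) with its 95% interval for the 10 tested probe sets (rows; in brackets the lead and the rank of a gene's other probe sets by mean) in 6 treated groups (panels); filled points passed at an adjusted p under 0.05. The filled points are CSPG4 in 3 panels and TAGLN in 1, all to the left of 0, and the MYH11 intervals are the widest.

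Among the treated groups CSPG4 means lay close together, between 8.34 and 8.58. Added to 6 days of hCG and TRL, R5020 changed CSPG4 by 0.19 (95% interval -0.14 to 0.53), and TRL added to 6 days of hCG changed it by -0.09 (95% interval -0.49 to 0.31). The groups of the latter comparison share only array set 3. Ordered by fitted level, the untreated group was highest and was followed by 1 day of hCG, which was lower by 0.38 (SE 0.16). That step is the comparison of 1 day of hCG with untreated tissue described above, which did not pass by limma. The largest difference between neighbours further down the order was 0.11 (SE 0.20), between 6 days with R5020 and 6 days of hCG alone. The order was taken from these same levels, so its steps are given as a description.

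NOTCH3 encodes the Notch receptor of arterial smooth muscle and pericytes, which keeps these cells mature. Its lead (MmuSTS.1971.1.S1_at) had group means between 9.40 and 9.88. The lowest mean was after 6 days of hCG alone, with levels of 9.14, 8.87, 9.71, 9.76 and 9.93 on 5 arrays, against a lowest level of 9.45, a median of 9.77 and a highest of 10.16 in the 8 untreated samples. Replicates 1 and 2 were the only hCG arrays below the untreated range. The change was -0.37 ± 0.19 (limma adjusted p = 0.29). Against 1 day of hCG, with levels of 9.49, 9.98, 10.17 and 9.87, it was -0.47 ± 0.20 (limma adjusted p = 0.17). The second NOTCH3 probe set (MmugDNA.5446.1.S1_at) changed by 0.03 and -0.04 in these comparisons and followed the lead with r = 0.16 only, so the 2 probe sets disagree. Set 2 read 0.55 ± 0.16 higher than set 1 for the lead (adjusted p = 0.063) and 0.15 lower for the second.

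The comparisons among treated groups asked what blocking progesterone synthesis, and then replacing the progestin, did to the markers. By limma none of the 10 probe sets passed in any of them. For TRL added to 1 day of hCG, 9 of 10 changes lay below 0, with a median of -0.34 against 0.01 over all probe sets. None had an unadjusted p under 0.05, against 8.83% of all probe sets, and 0.00346% of all probe sets passed. For TRL added to 6 days of hCG, 9 of 10 lay below 0 with a median of -0.20, 1 had an unadjusted p under 0.05, against 5.43% of all probe sets, and 0.00692% of all probe sets passed. The groups compared after 6 days share only set 3, with 1 array of each, so those changes rest largely on the estimated set effect.

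R5020 gave changes of the opposite sign in both comparisons with TRL. Added to 1 day of hCG and TRL, 9 of 10 lay above 0 with a median of 0.39, and 2 had an unadjusted p under 0.05, against 3.69% of all probe sets. Added to 6 days, 9 of 10 lay above 0 with a median of 0.21, and again 2 had an unadjusted p under 0.05, against 3.34% of all probe sets. The share of all probe sets that passed was 0% on both days. The groups compared after 1 day share no array set, so those changes rest on the estimated set effect. These counts share the hCG and TRL arrays with the counts for TRL, and several probe sets belong to 1 gene, so they are a description. Over all probe sets, between 51.1% and 53.7% of changes lay above 0 in these 4 comparisons.

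TRL and R5020 together were also set directly against hCG alone. After 1 day 7 of 10 changes lay above 0 with a median of 0.19, and after 6 days 7 of 10 with a median of 0.03. None had an unadjusted p under 0.05, against 5.42% and 3.66% of all probe sets, and 0% of all probe sets passed in either. The groups compared share no array set after 1 day and only set 3 after 6 days. For the difference between the days in the effect of TRL (day 15 minus day 10), none of the 10 passed, the smallest unadjusted p being 0.054 for the NOTCH3 lead. The same held for R5020, with a smallest unadjusted p of 0.28, and 0% of all probe sets passed in both.

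Time under treatment was compared as 6 days against 1 day, which here is also luteal day 15 against day 10. No mural probe set passed by limma. With hCG alone 1 of 10, the NOTCH3 lead, had an unadjusted p under 0.05, against 19.9% of all probe sets, and 6.48% of all probe sets passed. With hCG and TRL the unadjusted count was 0, against 17.5%, and 3.88% passed. With hCG, TRL and R5020 it was 0, against 15.4%, and 2.64% passed. The hCG and TRL groups of day 10 and day 15 share no array set, so their comparison rests on the estimated set effect. TAGLN changed by -0.36 ± 0.30 with hCG and TRL and by -0.06 ± 0.25 with R5020 added, and CSPG4 by -0.03 ± 0.20 and 0.12 ± 0.17.

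Across the 32 samples the contractile members varied together. With array set removed, the lead of MYH11 correlated with CNN1 at r = 0.73 and with the TAGLN lead at r = 0.56, and TAGLN with CNN1 at r = 0.71. With group means removed as well, these were 0.74, 0.52 and 0.69, so the relation was also present among samples of a group. CSPG4 correlated with the 3 contractile leads at -0.08 to 0.19, and with the NOTCH3 lead at 0.41. With the second NOTCH3 probe set its r was -0.0007, and 0.36 with group means removed. These values share arrays and their scaling and are given as a description, without a test. The map of correlations shows the block of contractile probe sets and the separate CSPG4 pair.

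**Figure D4:**
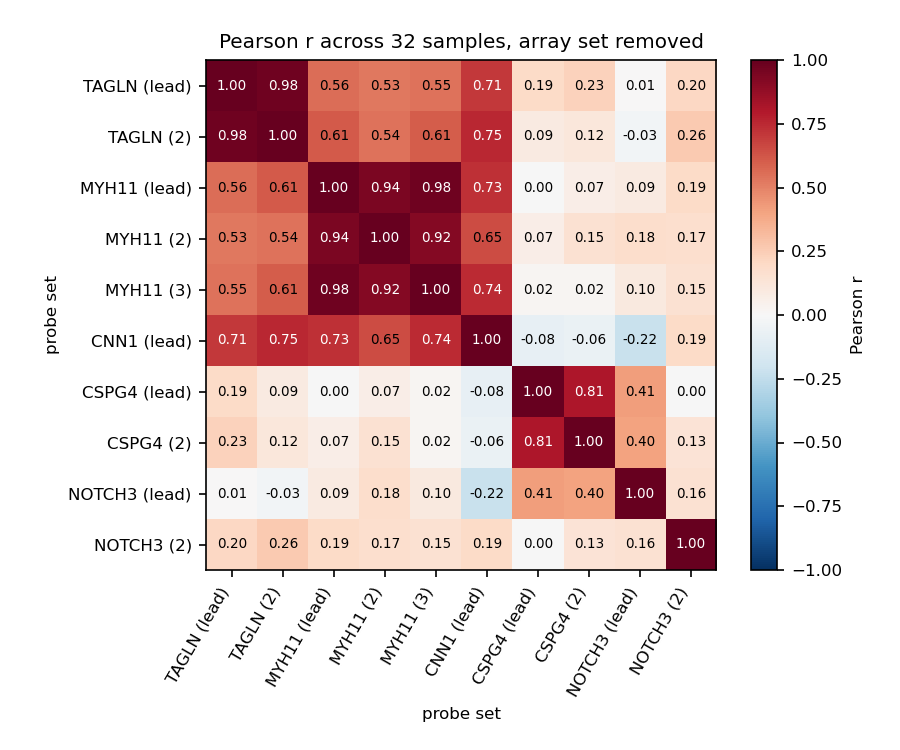
Pearson r between the 10 tested probe sets across 32 samples after removal of the array set effect (colour and printed value; rows and columns are probe sets, with the lead and the rank of a gene's other probe sets by mean in brackets). TAGLN, MYH11 and CNN1 form a block with r of 0.53 or more, and CSPG4 has r between -0.08 and 0.23 with every member of it.

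The genes most like each lead over the same 32 samples were sought among all probe sets with a gene name. CNN1 was closest to ACTG2, the enteric smooth muscle actin (r = 0.81), and to LMOD1, a smooth muscle leiomodin that nucleates actin filaments (r = 0.79), and then to the carboxypeptidase-like CPXM2 (r = 0.76). For TAGLN they were LMOD1 (r = 0.80), TPM2, a tropomyosin of the contractile filament (r = 0.80), and COL1A1 (r = 0.77). For MYH11 they were INPP5A, an inositol phosphatase, BOC, a cell surface receptor, and LMOD1 (r = 0.70, 0.70 and 0.69). CSPG4 was closest to the transcription factor TBX2 (r = 0.84), the chromosome regulator RCC2 (r = 0.76) and HEY2, a transcriptional target of Notch in vascular cells (r = 0.76). With group means removed these were 0.74, 0.46 and 0.57, so the likeness to RCC2 and HEY2 was weaker among samples of a group. For NOTCH3 they were JAG2, a Notch ligand (r = 0.77), GCN1 (r = 0.77) and SELENON (r = 0.76). TAGLN also followed the score of 4 ovarian surface epithelium markers (r = 0.64), and the NOTCH3 lead that of 12 endothelial markers (r = 0.63).

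A further list of 48 genes of mural cells, of the contractile apparatus and of platelet-derived growth factor and Notch signalling had 38 tested genes. With hCG and TRL for 6 days 6 of the 38 fell and none rose, where 5.11% of all probe sets fell, with a median change of -0.15 against 0.00 over all probe sets. CD248, endosialin, a surface protein of pericytes and fibroblasts, fell by 1.13 (SE 0.18, adjusted p = 0.00012), at 7.07 ± 0.45 (SD, n = 4) against 8.20 ± 0.23 (SD, n = 8) untreated. HEYL, a Notch target gene, fell by 0.68 (adjusted p = 0.0010), KCNJ8, the pore of the ATP-sensitive potassium channel of pericytes and vascular muscle, by 0.76 (adjusted p = 0.0018), and THY1, a surface glycoprotein of perivascular and stromal cells, by 0.65 (adjusted p = 0.0084). The other two, named after their values were seen, were KCNMB1, a potassium channel subunit of smooth muscle, which fell by 0.65 (adjusted p = 0.011), and HEY2, which fell by 0.74 (adjusted p = 0.032). Without the near-identical arrays 6 fell as well, with COX4I2 in place of KCNMB1. HEYL and THY1 each had 1 other tested probe set, which changed in the same direction and did not pass.

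With hCG alone for 6 days 3 of the 38 fell and none rose, where 2.18% of all probe sets fell: KCNJ8 by 0.82 (adjusted p = 0.0017), THY1 by 0.69 (adjusted p = 0.0089) and HEYL by 0.54 (adjusted p = 0.013). Without the near-identical arrays of the TRL and R5020 groups the same 3 fell and 2 rose. Those that rose were PPP1R14A, an inhibitor of myosin phosphatase, and the growth factor gene PDGFB. With R5020 added, 4 of 38 fell after 6 days, where 5.13% of all probe sets passed in either direction. They were KCNJ8, CD248, THY1 and HEYL, named after their values were seen, and 2 fell without the near-identical arrays, CD248 and THY1. In both of these 6-day comparisons the other tested probe set of THY1 also passed, and that of HEYL did not. KCNJ8 averaged 9.48 ± 0.34 with R5020, 9.38 ± 0.35 with hCG and TRL and 9.32 ± 0.25 with hCG (SD, n = 4 each), against 10.14 ± 0.19 (SD, n = 8) untreated. After 1 day 1 of 38 fell with hCG alone, JAG1, a Notch ligand named after its value was seen (-0.51 ± 0.13, adjusted p = 0.016), where 4.62% of all probe sets passed in either direction. The other tested JAG1 probe set changed in the same direction and did not pass. By limma none passed after 1 day of hCG and TRL, where 11 of 38 had an unadjusted p under 0.05, against 14.2% of all probe sets, and 11 lay above 0, or with R5020 added, where 7 had such a p, against 12.1%.

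**Figure D5:**
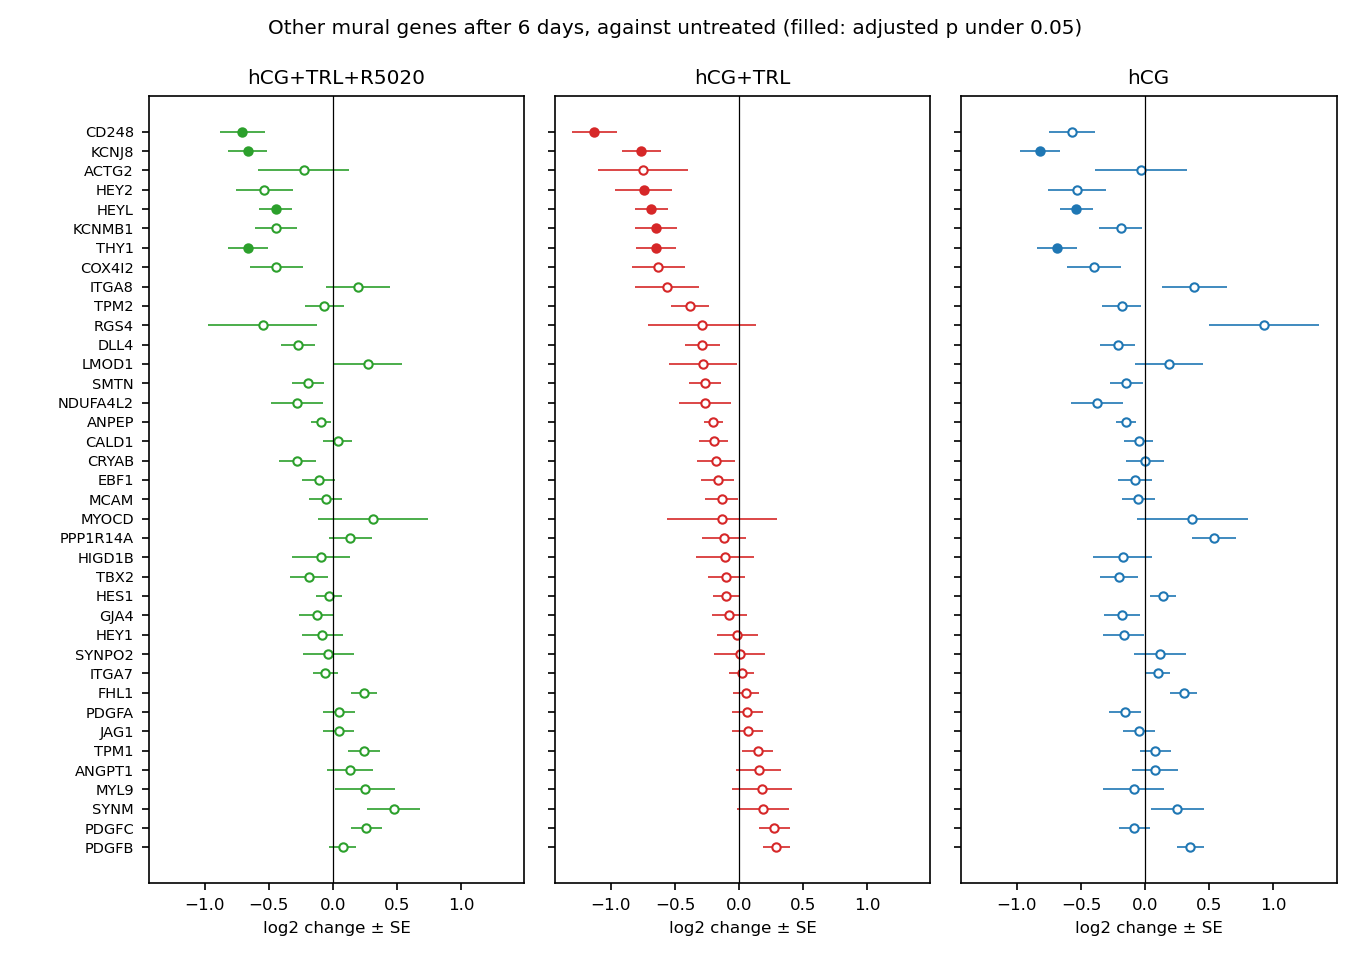
Log2 change ± SE against untreated tissue after 6 days (horizontal axis) for 38 further mural genes (rows, ordered by the change with hCG and TRL) in 3 treated groups (panels); filled points passed at an adjusted p under 0.05. Each gene is drawn by 1 probe set. All 13 filled points lie below 0, and KCNJ8, THY1 and HEYL are filled in every panel.

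Among treated groups, limma passed none of the 38 when TRL was added (3 with an unadjusted p under 0.05 on day 10 and 6 on day 15, against 8.83% and 5.43% of all probe sets) or when R5020 was added (3 and 2, against 3.69% and 3.34%). Between 6 days and 1 day of hCG alone 4 of 38 rose and 1 fell, where 6.48% of all probe sets passed in either direction, all named after their values were seen. SYNM, the intermediate filament protein synemin, rose by 0.80 ± 0.22 (adjusted p = 0.025), PPP1R14A by 0.67 ± 0.18 (adjusted p = 0.025), JAG1 by 0.46 ± 0.13 (adjusted p = 0.031) and PDGFB, the endothelial ligand that recruits pericytes, by 0.38 ± 0.11 (adjusted p = 0.044), and HEYL fell by 0.47 (adjusted p = 0.041). Of the 4 other tested PDGFB probe sets only 1 changed in the same direction. JAG1 and HEYL each had 1 other tested probe set, which changed in the same direction and did not pass. With hCG and TRL, KCNMB1 fell by 0.80 between the days (adjusted p = 0.032), a call that was not made without the near-identical arrays.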

How the data were processed

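The authors deposited log2 intensities per probe set for 33 arrays. How these were corrected for background, summarised and normalised is not given in the sources used here. Of 52865 probe sets, 99 controls were left out, and 28911 that exceeded 6.19, the median value, in 4 or more arrays were kept. Array medians lay between 6.14 and 6.32, and each array was centred on its median. Symbols are those of the platform annotation, 17606 kept probe sets having 1, 240 several and 11065 none.

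A single fit in limma 3.58.1 (R 4.3.3) held group and array set as fixed terms (24 residual degrees of freedom), with a mean-variance trend. Day 15 hCG replicates 3 and 5 were a random block (correlation 0.79, estimated per probe set with statmod 1.5.0, because limma's own function gives none for a single pair). There were 15 two-sided comparisons and 2 differences of effects. Deviations of same-numbered replicates of different groups had a median r of 0.03 over 84 pairs, 25 above 0.1. For replicates of other numbers it was -0.007 over 376 pairs, 76 above 0.1. These values do not settle whether the numbers pair samples, and the main fit did not pair them. The script was tested on simulated data. The number of arrays limits the precision. Other mural genes are named, up to 4 per comparison by smallest adjusted p, where a member passed. Members and lists were chosen with earlier results of these data known. Planned promoter sequences were not used here.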

Additional observations from a re-analysis of the deposited data

Results flagged for a closer look

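One of 70 group-by-probe-set combinations held a sample far from its group. Untreated replicate 7 read 7.85 for CNN1, and the nearest of the other 7 untreated samples read 7.14. The same sample had the highest untreated TAGLN level, 12.07, and the second highest MYH11 level, 10.21. Chance alone flags about 1 in 20 such groups.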

How the results depend on the processing

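Counts of mural probe sets past the threshold depended on the setting where they were above 0. For 1 day of hCG and TRL against untreated (1 of 10) the count was 2 with no array set term, 0 with only the groups compared, within array set 1, without array set 3, without the near-identical arrays and with the replicate number as a block, and 0 to 1 with 1 sample left out. For 6 days of hCG (1 of 10) it was 3 with no array set term, 0 with no filter on low values and under the same 5 settings, and 0 to 1 with 1 sample left out. For 6 days of hCG and TRL (3 of 10) it was 0 with the replicate block, and 1 to 3 with 1 sample left out, the lowest without TRL replicates 1 or 2 or untreated replicates 6 or 9. Untreated replicates 6 to 9 have numbers of their own, so that the block leaves their values out of the comparison. The F test called 1 with the block and 1 to 4 with 1 sample left out, against 2. A count of 0 became 1 for 1 day of hCG with no array set term, for 1 day of hCG, TRL and R5020 without its replicate 4, and for 6 days against 1 day of hCG without day 15 replicate 5 (0 to 1 over the samples left out in both). The count of 4 arose on leaving out replicate 3 of 6 days of hCG, and that of 1 on leaving out replicate 1, 2 or 3 of 6 days of hCG and TRL. Leaving out array set 3 was chosen after seeing the data. No call changed its direction under any setting. Of 173 single results that did not pass, 164 passed under none. No other count moved by more than 1.5 times under the block. Samples numbering 4 in most groups limit what can be detected: against untreated tissue the 95% intervals of the MYH11 lead reach about 0.7 on either side, and they are wider between treated groups of different array sets.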
